A study of Mus musculus with 22 samples.

Results

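The proteasome genes were taken as every symbol of the deposited table that begins with Psm, a letter from a to g and a digit. The rule found 50 genes among the 18716 rows, of which 49 passed a filter on low values (at least 0.5 RPKM in at least 7 libraries) together with 12537 rows in all. By role, 14 of them encode the constitutive core, 3 the catalytic subunits of the immunoproteasome, 20 carry symbols of the regulatory cap, 4 are activators, 1 is an inhibitor and 4 are core assembly chaperones. Within the cap symbols, Psmd5, Psmd9 and Psmd10 are chaperones that assemble its base and leave the finished particle. The remaining 4 are Psma8 and Psmb11, core subunits specific to testis and thymus, Psme2b, a retrocopy of Psme2, and Psmc3ip, a meiotic recombination gene that matches the rule by its symbol alone. The rule reads symbols and no measured value, but it was chosen with earlier results of these data known.

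The data are RNA sequencing of polyadenylated transcripts from whole mouse livers with the genotype Fah-/-, that is, without working fumarylacetoacetate hydrolase, which completes the breakdown of tyrosine. In the YC group, 7 libraries come from mice that had received hepatocytes labelled td and then an agent labelled YC over the 28 days after NTBC was withdrawn. NTBC blocks an earlier step of tyrosine breakdown and protects livers that lack Fah. The vehicle group has 8 libraries, with the same transplantation and withdrawal but vehicle in place of YC. The D0 group has 7 libraries of the same genotype, taken on day 0 and labelled as normal liver. All groups share the Fah-/- allele. Sex, age and strain are not stated in the labels used here, and whether each library stands for its own animal is not said there. The p-values therefore speak of the spread among libraries, part of which may be technical. By their labels, YC and vehicle livers can hold host and transplanted cells together, and the vehicle to D0 comparison joins transplantation, withdrawal and time. The study's design text gives the purpose as a comparison of liver expression, to ask whether YC makes transplanted hepatocytes grow by way of dedifferentiation.

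Across the series, the estimated depth was 50500000 to 82600000 reads or fragments per library. All 8 hepatocyte markers were found, with a summed level of 35915 to 71970 RPKM in YC livers, 66996 to 100308 RPKM in vehicle livers and 55315 to 73140 RPKM in D0 livers. Fah was read at 31.5 to 407 RPKM in YC livers, 271 to 542 RPKM in vehicle livers and 21.1 to 38.7 RPKM in D0 livers, so the group with no transplanted cells in its label still held Fah reads. Libraries YC 6 and YC 7 stood apart: their Fah levels of 41.3 and 31.5 RPKM lay close to D0 livers, and their hepatocyte marker sums were the 2 lowest of all 22 libraries. Vehicle 1 and YC 4 held the pancreatic transcript Prss2 at 65.3 and 135 RPKM, against 0.409 RPKM or less in the other libraries. The Y-linked transcript Ddx3y was read in all vehicle livers and in YC 1 to 3 and listed at 0 in YC 4 to 7 and in all D0 livers. A Y chromosome and the group therefore cannot be told apart between vehicle and D0 livers. Through YC 4 to 7, it differed in part between YC and vehicle livers as well. For called members described below, the value without YC 6 and YC 7 is given where that call ended or the log2 difference moved by over 1.5 times.

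The proteasome is the main protease that removes ubiquitin-tagged proteins from the cytosol and nucleus. Its core is a barrel of alpha and beta rings, with the cutting sites on the beta subunits, and its regulatory cap binds ubiquitin chains, unfolds the substrate with a ring of ATPases and feeds it into the core. Interferon replaces the catalytic beta subunits with the immunoproteasome subunits Psmb8, Psmb9 and Psmb10, which alter the peptides made for antigen presentation. When proteasome activity is short, the transcription factor Nfe2l1 raises proteasome subunit genes together, and mouse liver that lacks Nfe2l1 is known to develop steatohepatitis.

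Promoter windows were read because Nfe2l1 and interferon factors are known to act on short DNA sequences near the start of proteasome genes. RefSeq windows of 300 bases (250 before to 50 after the annotated start, GRCm38.p6) were at hand for 42 of the 50 genes, 45 windows in all. TGACNNNGC, the antioxidant response element bound by Nfe2l1 and Nfe2l2, was searched on both strands, as were the interferon-stimulated response element (GAAA, any 2 bases, GAAA) and CCAAT, the box bound by Nfya, Nfyb and Nfyc. The TGACNNNGC letters were in 6 of the 45 windows (13.3%), against 12.4% of all 32851 windows of the same length. They were in Psmb5, Psmb6, Psmd9, Psmd12, Psmc6 and Psme4. The paired GAAA letters were in 5 windows (11.1%), against 3.44% of all windows, namely Psmb3, Psmd4, Psmd9, Psme1 and Psmg4. Neither was in the windows of Psmb8, Psmb9 and Psmb10. CCAAT was in 33.3% of the members' windows and 37.4% of all windows. These are matches of letters and not shown binding sites. Shown here are the 4 windows with TGACNNNGC within 50 bases of the start, since their levels are set beside Nfe2l1 below, and the window of the interferon-inducible activator Psme1, with matches to TGACNNNGC or the paired GAAA in capitals on either strand, each read 5′ to 3′ on the gene's strand.
Psmb5: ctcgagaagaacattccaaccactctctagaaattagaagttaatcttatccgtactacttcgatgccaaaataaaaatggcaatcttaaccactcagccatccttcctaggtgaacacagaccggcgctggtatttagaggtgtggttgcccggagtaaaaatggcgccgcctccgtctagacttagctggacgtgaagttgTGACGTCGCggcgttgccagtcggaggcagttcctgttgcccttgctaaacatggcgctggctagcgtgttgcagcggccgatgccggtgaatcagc
Psmb6: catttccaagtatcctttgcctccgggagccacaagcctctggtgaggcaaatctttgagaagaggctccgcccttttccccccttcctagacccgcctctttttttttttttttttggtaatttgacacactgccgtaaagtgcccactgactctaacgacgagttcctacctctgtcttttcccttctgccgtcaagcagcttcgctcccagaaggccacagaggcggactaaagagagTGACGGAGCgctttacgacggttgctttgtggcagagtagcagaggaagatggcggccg
Psmd9: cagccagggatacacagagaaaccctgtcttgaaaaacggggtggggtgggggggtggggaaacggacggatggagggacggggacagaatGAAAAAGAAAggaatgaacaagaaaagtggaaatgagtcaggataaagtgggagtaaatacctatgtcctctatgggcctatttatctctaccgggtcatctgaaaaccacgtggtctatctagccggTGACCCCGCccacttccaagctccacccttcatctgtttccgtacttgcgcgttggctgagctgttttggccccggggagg
Psme4: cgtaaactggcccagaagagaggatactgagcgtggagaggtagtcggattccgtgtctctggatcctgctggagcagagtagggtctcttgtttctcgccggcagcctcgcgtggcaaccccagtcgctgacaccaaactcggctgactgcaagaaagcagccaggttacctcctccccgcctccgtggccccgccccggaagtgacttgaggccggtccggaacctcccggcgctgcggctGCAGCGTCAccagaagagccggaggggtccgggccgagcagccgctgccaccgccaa
Psme1: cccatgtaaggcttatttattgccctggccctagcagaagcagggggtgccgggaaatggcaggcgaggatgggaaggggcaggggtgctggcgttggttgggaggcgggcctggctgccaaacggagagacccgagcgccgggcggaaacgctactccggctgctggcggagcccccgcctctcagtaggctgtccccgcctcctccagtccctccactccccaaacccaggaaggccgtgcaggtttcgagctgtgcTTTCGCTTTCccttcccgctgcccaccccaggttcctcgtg
The windows lie at chr14:54617946-54618245 on the minus strand, chr11:70525107-70525406, chr5:123227940-123228239, chr11:30771525-30771824 and chr14:55578244-55578543 on the plus strand. The match in Psmb5 starts 47 bases before the annotated start, that in Psmb6 9 bases before it, and that in Psmd9 31 bases before it, all on the gene's strand, and that in Psme4 starts 7 bases before it on the opposite strand. The paired GAAA match of Psmd9 starts 159 bases before the start and that of Psme1 10 bases after it, on the opposite strand.

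Every proteasome gene but Psmb11 was read in every liver, and a core beta gene led in each group. Levels here are RPKM, which are scaled to gene length, so genes can be set beside each other. Psmb4, a noncatalytic beta subunit, had the highest mean in each group, with 354 ± 125 RPKM in YC livers, 222 ± 42.6 in vehicle livers and 239 ± 33.1 in D0 livers (mean ± SD, n = 7, 8 and 7). Psmb5, the chymotrypsin-like catalytic subunit, was next in YC livers at 342 ± 131 RPKM and in D0 livers at 224 ± 31.8 RPKM, but the fifth in vehicle livers at 181 ± 55.3 RPKM. Psmb4 and Psmb5 differed by less than their SDs in YC and D0 livers, as did the genes ranked from the second to the fifth in vehicle livers, which were Psme1, Psmb7, Psmb3 and Psmb5. Among core alpha genes, Psma6 was the highest and Psma3 the lowest in all 3 groups, a gap of 3.53 times in YC livers, 3.31 times in vehicle livers and 3.03 times in D0 livers. The cap was less even: Psmd10 was its lowest gene, and Psmd8 its highest in YC and vehicle livers, 13.9 and 14.8 times the level of Psmd10, while Psmd4 led in D0 livers at 20.0 times the level of Psmd10.

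The coefficient of variation between libraries was wider in YC livers. Over the 7 core beta genes its median was 40.7% in YC livers, 22.2% in vehicle livers and 15.0% in D0 livers. YC 6 and YC 7 were the highest libraries. Their summed level of the 14 core genes was 3665 and 4350 RPKM, against 1530 to 2220 RPKM in YC 1 to 5, 1528 to 2518 RPKM in vehicle livers and 1568 to 2346 RPKM in D0 livers. For the 20 cap genes, the sum was 2019 and 1987 RPKM in YC 6 and YC 7, against 1090 to 1671 RPKM in YC 1 to 5, 974 to 1240 RPKM in vehicle livers and 1191 to 1487 RPKM in D0 livers. The core sum was thus highest in YC 6 and YC 7, while YC 1 to 5 lay within the range of vehicle livers. In whole liver, a change in the share of cells of a type and a change of RNA per cell cannot be told apart.

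**Figure D1:**
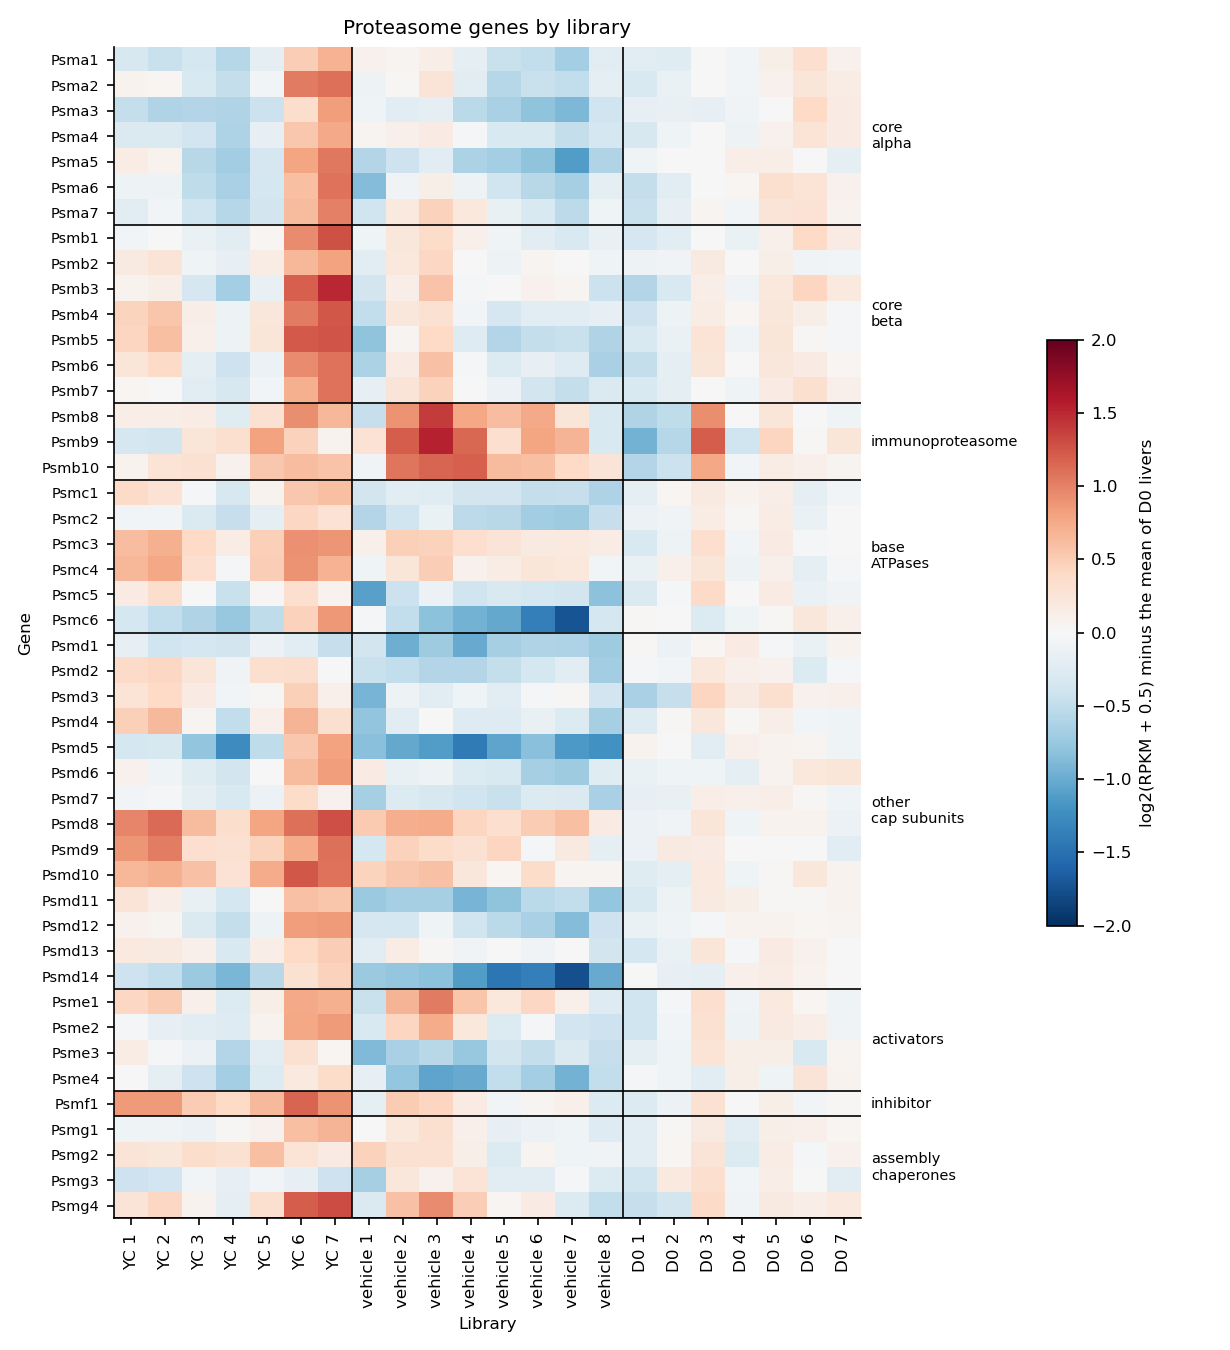
Level of the proteasome genes (rows, grouped by role, without the 4 outside these roles) in each of the 22 libraries (columns), as log2(RPKM + 0.5) minus the mean of D0 livers, from blue (lower) through white to red (higher). Core rows are red in YC 6 and YC 7, several cap rows are blue in vehicle livers, and the immunoproteasome rows are red in most vehicle livers and in D0 3.

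YC livers were compared with vehicle livers to ask what the agent changed in transplanted livers. Of the 49 tested proteasome genes, 25 were higher in YC livers than in vehicle livers and 0 were lower (limma, Benjamini-Hochberg adjusted p under 0.05). Over all 12537 genes tested, 44.6% were called higher and 6.14% lower, so the proteasome share of 51.0% higher lay near the background. At an unadjusted p under 0.05, 26 members were higher and 0 lower. The calls fell unevenly over the complex. In the cap, 19 of 20 genes were higher (95%), with a median log2 difference of 0.51. In the core, 3 of 14 were higher (21.4%), with a median of 0.27, while the median of all genes tested was 0.31. Log2 differences are on the log2(RPKM + 0.5) scale.

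This general upward shift depends on scaling. With libraries scaled by the median ratio of their genes, the median of all genes was 0.02, and 18.6% of all genes were called higher and 16.6% lower. Of the members, 5 were then higher, namely Psmb5, Psmd2, Psmd11, Psmd14 and Psmf1, and 3 lower, namely Psmb9, Psmb10 and Psmg3. The median of the cap became 0.18 and that of the core -0.07. Read against the median of all genes, 19 of 20 cap genes and 6 of 14 core genes lay above it as deposited, and 18 and 5 after the scaling. Without YC 6 and YC 7, 19 members were higher and 0 lower, against 43.9% and 7.25% of all genes; of these members, 13 belong to the cap and 3 to the core, with medians of 0.36 and -0.01. With both changes together, 2 members were higher, Psmd2 and Psmd11, and 13 were lower, against 21.3% and 17.9% of all genes.

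In the core, Psma5, an alpha ring subunit (GRCm38 chr3:108256926-108279974), showed the largest change of its ring. Psma5 had 51.6, 87.6 and 173 RPKM (lowest, median and highest) in YC livers, against 38.4, 54.3 and 71.6 RPKM in vehicle livers and 73.0, 83.5 and 92.0 RPKM in D0 livers. The highest values were YC 6 and YC 7, YC and vehicle livers overlapped, and every vehicle liver was below every D0 liver. Psma5 was higher in YC livers by 0.70 ± 0.20 (log2 ± SE, limma adjusted p = 0.00639) and by 0.36 ± 0.15 without YC 6 and YC 7 (limma adjusted p = 0.0475). The other 6 alpha genes had log2 differences between 0.08 and 0.42, and these did not pass the test. Of the beta ring, Psmb5 (chr14:54614119-54618022) was higher by 0.88 ± 0.20 (limma adjusted p = 0.00109) and Psmb4 by 0.62 ± 0.18 (limma adjusted p = 0.00610). Without YC 6 and YC 7 the difference of Psmb4 was 0.36 (limma adjusted p = 0.0445). Psmb5 had 207, 298 and 531 RPKM (lowest, median and highest) in YC livers, against 126, 161 and 293 RPKM in vehicle livers and 179, 216 and 269 RPKM in D0 livers. YC 6 and YC 7 were again the highest, and vehicle 2 and vehicle 3 reached into the YC range.

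The other catalytic subunits did not pass the test. Psmb6, the caspase-like subunit, had 109, 172 and 310 RPKM (lowest, median and highest) in YC livers, against 93.3, 126 and 219 RPKM in vehicle livers and 105, 150 and 173 RPKM in D0 livers. Psmb7, the trypsin-like subunit, had 155, 194 and 410 RPKM (lowest, median and highest) in YC livers, against 139, 175 and 265 RPKM in vehicle livers and 156, 192 and 242 RPKM in D0 livers. Both groups overlapped widely for each gene, with log2 differences between YC and vehicle livers of 0.43 ± 0.21 for Psmb6 (limma adjusted p = 0.0981) and 0.27 ± 0.19 for Psmb7 (limma adjusted p = 0.239). Psmb6 passed the test when vehicle 3 or YC 4 was left out.

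In the cap, all 6 ATPases of the base ring were higher in YC livers, from 0.32 for Psmc3 to 0.65 for Psmc6. Psmc6 had 43.8, 52.7 and 137 RPKM (lowest, median and highest) in YC livers, against 22.2, 40.1 and 73.0 RPKM in vehicle livers and 61.5, 75.5 and 87.4 RPKM in D0 livers. Its groups overlapped, with YC 6 and YC 7 on top, and the difference was 0.65 ± 0.24 (limma adjusted p = 0.0256). The call was lost when vehicle 6, vehicle 7, YC 6 or YC 7 was left out, and that of Psmc3 when any of vehicle 6 to 8 or YC 1, 2, 6 or 7 was. Without both YC 6 and YC 7, 3 of the 6 were called, while Psmc3 at 0.20, Psmc4 at 0.29 and Psmc6 at 0.30 were not (limma adjusted p = 0.173, 0.0671 and 0.210). With the scaling by median ratio none of the 6 was called, and Psmc3 turned to -0.02 (limma adjusted p = 0.925). Psmc1 was higher by 0.61 ± 0.13 (limma adjusted p = 0.000401).

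Among the other cap genes, 13 of 14 were higher. Psmd11, a lid scaffold subunit whose excess raises proteasome activity in human cells (chr11:80428615-80473248), changed most. Psmd11 had 52.7, 74.0 and 102 RPKM (lowest, median and highest) in YC livers, against 35.1, 41.3 and 47.9 RPKM in vehicle livers and 54.3, 68.7 and 76.3 RPKM in D0 livers. Every YC liver lay above every vehicle liver, as was true of 6.52% of all genes tested, while 0 members showed the reverse, against 0.558%. The difference was 0.85 ± 0.13 (limma adjusted p = 2.01e-05). Psmd2, a large scaffold subunit of the base that binds ubiquitin receptors, also separated the groups without overlap and was higher by 0.72 ± 0.11 (limma adjusted p = 1.42e-05). Psmd14, the deubiquitinase that cuts the chain off the substrate, was higher by 0.80 ± 0.19 (limma adjusted p = 0.00120). Psmd5, an assembly chaperone of the base, was higher by 0.81 ± 0.21 (limma adjusted p = 0.00265). Without YC 6 and YC 7 both stayed called, Psmd14 at 0.51 and Psmd5 at 0.44 (limma adjusted p = 0.00755 and 0.0116). Psmd13 alone was not called, at 0.24 ± 0.12 (limma adjusted p = 0.0978), though it passed without YC 4, and its exons overlap those of Sirt3 on the other strand, which the values may not separate.

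**Figure D2:**
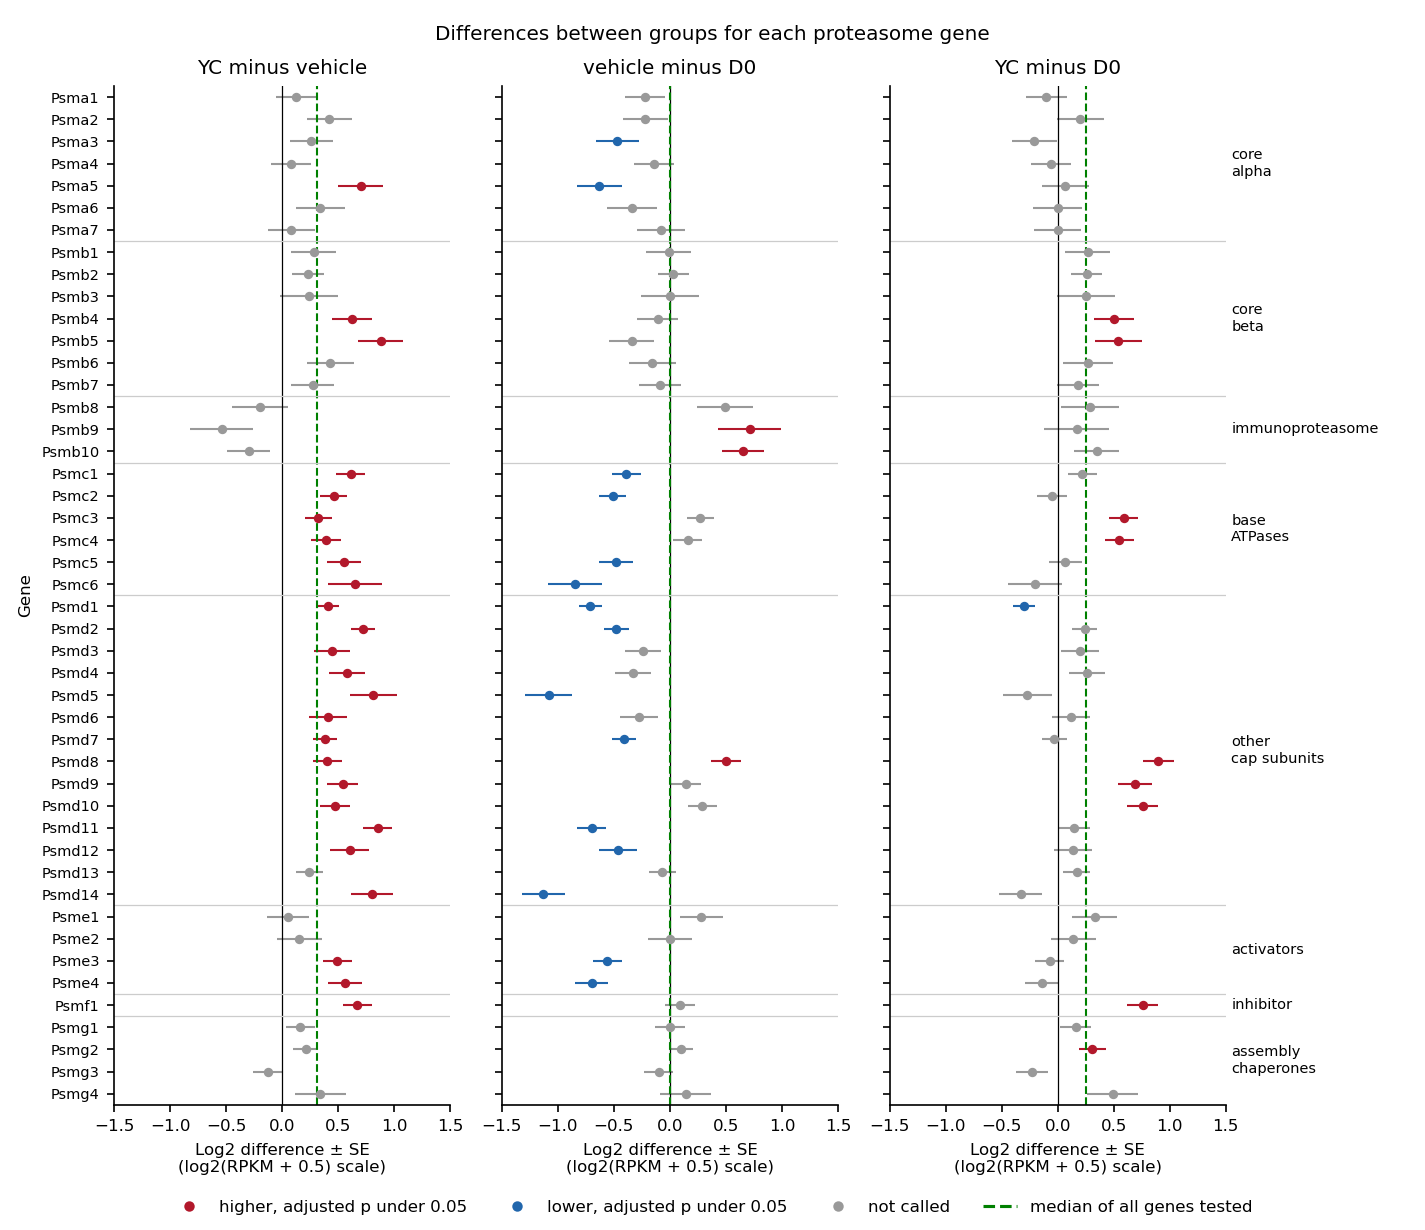
Log2 difference with its SE for each proteasome gene in the 3 comparisons, on the log2(RPKM + 0.5) scale, with genes called higher in red, lower in blue and others in grey. The dashed green line is the median of all genes tested, 0.31 in YC minus vehicle, 0.00 in vehicle minus D0 and 0.25 in YC minus D0; 19 of 20 cap genes are red in the first panel and 11 are blue in the second.

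The activators bind the ends of the core in place of the cap. Psme4, a single-chain nuclear activator, was higher in YC livers by 0.56 ± 0.15 (limma adjusted p = 0.00361) and Psme3, the nuclear ring activator, by 0.49 ± 0.13 (limma adjusted p = 0.00253). Psme4 had 19.1, 27.3 and 40.2 RPKM (lowest, median and highest) in YC livers, against 14.7, 18.5 and 27.6 RPKM in vehicle livers and 26.3, 30.1 and 36.9 RPKM in D0 livers. YC and vehicle livers overlapped, and D0 livers lay above all vehicle livers but vehicle 1. Psme1 and Psme2, the interferon-inducible ring, had differences of 0.05 ± 0.19 and 0.15 ± 0.20 and did not pass the test (limma adjusted p = 0.850 and 0.549). Psmf1, an inhibitor of the core, was higher by 0.67 ± 0.13 (limma adjusted p = 0.000234). Psmf1 had 13.9, 19.3 and 24.1 RPKM (lowest, median and highest) in YC livers, against 8.57, 11.0 and 15.1 RPKM in vehicle livers and 8.58, 10.4 and 13.0 RPKM in D0 livers. YC and vehicle livers overlapped only through the 2 highest vehicle livers. None of the 4 chaperones of core assembly, Psmg1 to Psmg4, passed the test, with differences of -0.13 to 0.34, and with the scaling by median ratio Psmg1 and Psmg2 turned to -0.17 and -0.12; at an unadjusted p under 0.05 the count was also 0.

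**Figure D3:**
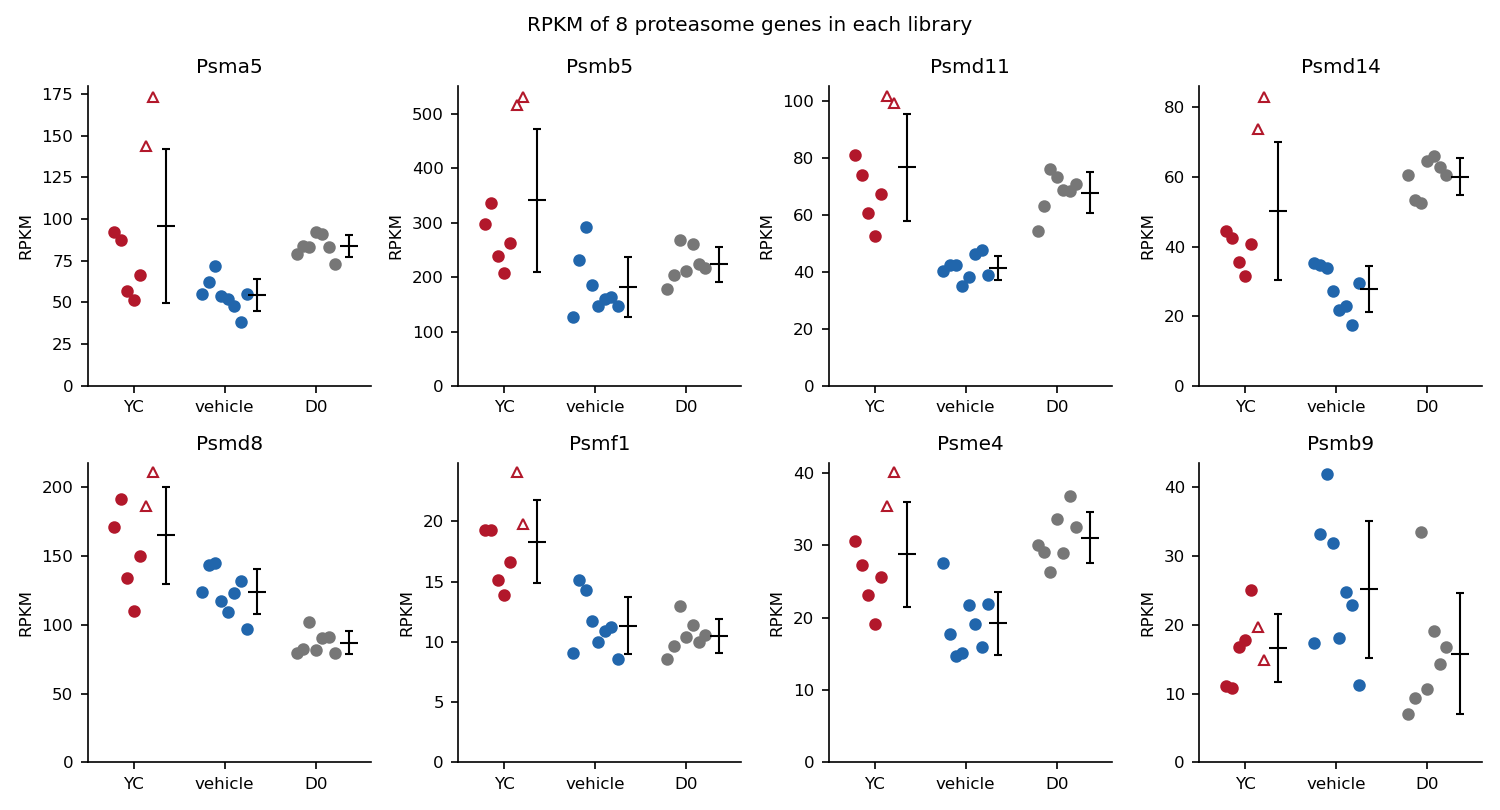
RPKM of 8 proteasome genes in each library (points), with the group mean ± SD at the right of each group; open triangles are YC 6 and YC 7. Psmd11 separates YC from vehicle livers, Psmd14 is lowest in vehicle livers, and Psmd8 is lowest in D0 livers.

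Vehicle livers were compared with D0 livers to describe where the transplanted livers stood 28 days after withdrawal. Here 3 members were higher in vehicle livers and 15 were lower (limma adjusted p under 0.05), against 28.2% higher and 29.9% lower over all genes tested, and 30.6% of the members lower is near that background. The lower genes were again mostly of the cap, 11 of 20 with a median log2 difference of -0.40, while 2 of 14 core genes were lower with a median of -0.15. The median of all genes was 0.00, and the scaling by median ratio kept all 18 calls, with 30.2% higher and 29.9% lower over all genes. That scaling added the cap genes Psmc3 at 0.30 and Psmd10 at 0.31, both higher in vehicle livers (limma adjusted p = 0.0278 and 0.0172). The 3 comparisons share their libraries, so the differences of YC from vehicle livers and of vehicle from D0 livers are not independent of each other.

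Psmd14 (chr2:61711694-61800376) fell most. Psmd14 had 31.5, 42.5 and 82.8 RPKM (lowest, median and highest) in YC livers, against 17.4, 28.3 and 35.4 RPKM in vehicle livers and 52.6, 60.5 and 66.1 RPKM in D0 livers. Every vehicle liver was below every D0 liver, as for 11.7% of all genes tested, and the difference was -1.13 ± 0.19 (limma adjusted p = 2.08e-05). Psmd5 differed by -1.08 ± 0.21 on the log2 scale (limma adjusted p = 0.000133). Psmd1, the second large scaffold of the base, also showed no overlap between vehicle and D0 livers. Psmd1 had 30.3, 32.7 and 38.6 RPKM (lowest, median and highest) in YC livers, against 20.7, 25.8 and 32.3 RPKM in vehicle livers and 38.3, 42.6 and 47.4 RPKM in D0 livers. YC livers lay between and overlapped slightly with both, and vehicle livers differed from D0 livers by -0.71 ± 0.10 (limma adjusted p = 3.61e-06). Psmd11 differed by -0.70 ± 0.13 (limma adjusted p = 8.75e-05). In all, 7 of 20 cap genes had every vehicle liver below every D0 liver, and 0 members had them all above, against 11.2% of all genes.

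Of the ATPases, 4 of 6 were lower in vehicle livers, led by Psmc6 at -0.85 ± 0.24 (limma adjusted p = 0.00389) and with Psmc2 at -0.51 ± 0.12 (limma adjusted p = 0.00124). In the core, Psma5 at -0.63 ± 0.20 (limma adjusted p = 0.0101) and Psma3 at -0.47 ± 0.19 (limma adjusted p = 0.0388) were lower. The call of Psma3 was lost when any of D0 4 to 7 or vehicle 4 to 7 was left out. Of the 7 beta genes, 0 passed the test in limma, and 0 did so at an unadjusted p under 0.05. Psmb5 differed by -0.34 ± 0.20 (limma adjusted p = 0.153). It was called lower with quantile normalization, at -0.41, and with library weights, at -0.33 (limma adjusted p = 0.0185 and 0.0452). The nuclear activators Psme4 and Psme3 were lower too, with differences of -0.70 ± 0.15 and -0.56 ± 0.13 on the log2 scale (limma adjusted p = 0.000369 and 0.000610).

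Psmd8, a lid subunit that in yeast is the last to join the lid (chr7:29174188-29180701), went against its class. Psmd8 had 110, 171 and 211 RPKM (lowest, median and highest) in YC livers, against 96.8, 123 and 145 RPKM in vehicle livers and 79.5, 82.5 and 102 RPKM in D0 livers. Vehicle and D0 livers overlapped only through vehicle 8 and D0 3, and the difference of vehicle from D0 livers was 0.50 ± 0.13 (limma adjusted p = 0.00250). YC livers lay above all D0 livers and overlapped with vehicle livers, from which they differed by 0.40 ± 0.13 (limma adjusted p = 0.0157). That call was lost without YC 6 and YC 7, at 0.28 (limma adjusted p = 0.0786), and with the scaling by median ratio, at 0.06 (limma adjusted p = 0.744).

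YC livers were compared with D0 livers to see how far they lay from the starting level. Of the members, 10 were higher in YC livers and 1 lower (limma adjusted p under 0.05), against 41.2% and 12.3% of all genes tested, so the 20.4% of members called higher was below the background share. The median log2 difference was 0.16 for the cap and 0.19 for the core, against 0.25 for all genes. With the scaling by median ratio, 5 members were higher, namely Psmc3, Psmd8, Psmd9, Psmd10 and Psmf1, and 10 lower, against 26.9% and 27.1% of all genes, and without YC 6 and YC 7, 7 were higher and 7 lower, against 41.7% and 14.5% of all genes.

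In 4 genes every YC liver lay above every D0 liver, as in 19.4% of all genes tested, and 0 members showed the reverse, against 4.17%. Psmd8 was higher by 0.90 ± 0.14 (limma adjusted p = 7.6e-06). Psmd10, known as gankyrin, a base assembly chaperone and an oncoprotein of liver cancer, was higher by 0.76 ± 0.14 (limma adjusted p = 6.13e-05), and Psmd9, another base assembly chaperone, by 0.69 ± 0.15 (limma adjusted p = 0.000392). Psmf1 was higher by 0.76 ± 0.14 (limma adjusted p = 5.18e-05). These 4 calls held with the scaling by median ratio.

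Psmc3 and Psmc4, ATPases of the base ring, were higher by 0.59 ± 0.13 and 0.55 ± 0.13 (limma adjusted p = 0.000457 and 0.00133). Psmc3 had 83.1, 116 and 143 RPKM (lowest, median and highest) in YC livers, against 80.5, 88.3 and 105 RPKM in vehicle livers and 60.8, 73.0 and 95.7 RPKM in D0 livers. YC 4 was the lowest YC liver and reached into the D0 range. Psmb5 at 0.54 ± 0.21 (limma adjusted p = 0.0331) and Psmb4 at 0.50 ± 0.18 (limma adjusted p = 0.0237) were called in the core, and neither was called without YC 6 and YC 7, at 0.26 and 0.25 (limma adjusted p = 0.233 and 0.168). Each was also lost without YC 6, YC 7 or D0 1 alone, and Psmb5 without D0 2, D0 4 or YC 2. Psmd1 was the member called lower, at -0.30 ± 0.10 (limma adjusted p = 0.0178), and Psmd14 at -0.33 ± 0.19 did not pass (limma adjusted p = 0.146), though it did without YC 7, and without YC 6 and YC 7 it was called lower at -0.62 (limma adjusted p = 0.00169). The core assembly chaperone Psmg2 was higher by 0.31 ± 0.12 (limma adjusted p = 0.0278). Psmg2 had 16.0, 17.2 and 21.8 RPKM (lowest, median and highest) in YC livers, against 11.7, 15.1 and 19.6 RPKM in vehicle livers and 11.6, 14.5 and 17.0 RPKM in D0 livers. YC 5 was the highest, and without it the call was lost, at 0.26 ± 0.12 (limma adjusted p = 0.0700), as it was without D0 1 or D0 4. Leaving out D0 1 left 7 members called in this comparison.

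The balance of cap to core was described within each library, where a common scaling cancels, as the mean log2(RPKM + 0.5) of the 20 cap genes minus that of the 14 core genes. It was -1.69, -0.99 and -0.94 in YC livers (lowest, median and highest), against -1.61, -1.27 and -1.13 in vehicle livers and -1.40, -1.12 and -1.02 in D0 livers. YC 1 to 5 lay between -1.03 and -0.94, all above every vehicle liver, whereas YC 6 at -1.39 and YC 7 at -1.69 lay within or below the vehicle range. This balance was computed after the difference between cap and core had been seen and was not tested. YC 6 and YC 7 held 269 and 413 RPKM of 12 summed neutrophil markers, with YC 5 between them at 382 RPKM. These sums were 52.1 to 382 RPKM in YC 1 to 5, 48.1 to 171 RPKM in vehicle livers and 4.57 to 58.0 RPKM in D0 livers. Macrophage and Kupffer cell markers came to 1089 and 992 RPKM in YC 6 and YC 7, against 444 to 689 RPKM in YC 1 to 5. Liver endothelium markers came to 183 and 199 RPKM, against 105 to 128 RPKM. Erythroid markers went the other way, at 36.5 and 5.12 RPKM against 79.9 to 477 RPKM. The part of these cells in the core level was not tested.

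**Figure D4:**
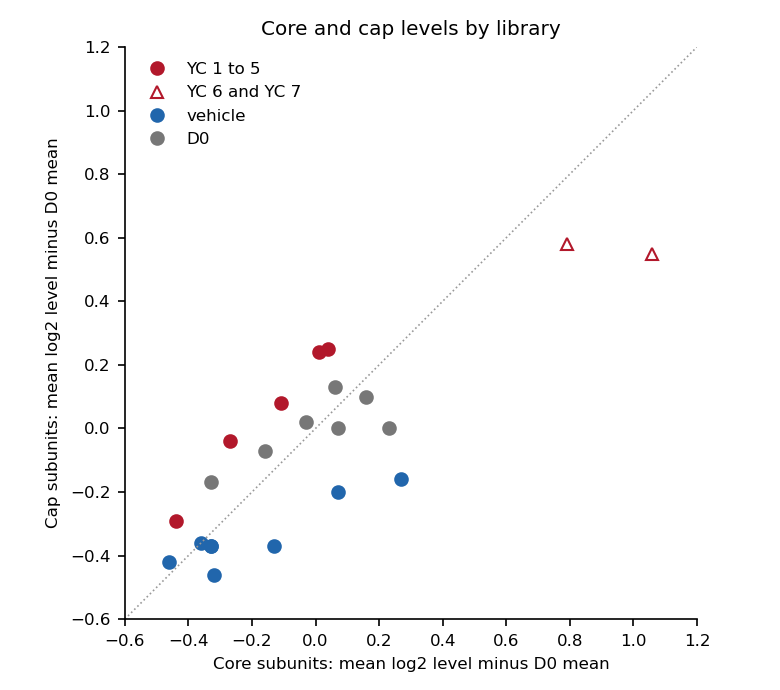
Mean log2 level of the 20 cap genes (vertical) against that of the 14 core genes (horizontal), both minus the D0 mean, 1 point per library; the dotted line marks equal change. YC 1 to 5 lie above the line, vehicle livers lie on or below it except 1 slightly above, and YC 6 and YC 7 lie far to the right.

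The immunoproteasome subunits had their highest median level in vehicle livers. Psmb8 replaces Psmb5, Psmb9 replaces Psmb6 and Psmb10 replaces Psmb7 when the immunoproteasome is built. Psmb8 had 26.3, 34.6 and 60.2 RPKM (lowest, median and highest) in YC livers, against 22.6, 50.8 and 83.4 RPKM in vehicle livers and 20.5, 31.5 and 60.2 RPKM in D0 livers. Psmb9 had 10.8, 16.8 and 25.0 RPKM (lowest, median and highest) in YC livers, against 11.3, 23.9 and 41.8 RPKM in vehicle livers and 7.09, 14.3 and 33.4 RPKM in D0 livers. Psmb10 had 34.2, 40.2 and 50.0 RPKM (lowest, median and highest) in YC livers, against 30.9, 50.0 and 74.9 RPKM in vehicle livers and 21.4, 33.8 and 55.6 RPKM in D0 livers. The groups overlapped for all 3 genes. Psmb9 and Psmb10 were higher in vehicle livers than in D0 livers, by 0.71 ± 0.28 (limma adjusted p = 0.0343) and 0.65 ± 0.19 (limma adjusted p = 0.00608), while Psmb8 at 0.49 ± 0.25 did not pass (limma adjusted p = 0.0976). The call of Psmb9 was lost without D0 1, 2 or 4 or vehicle 2, 3, 4 or 6, and Psmb8 passed without D0 3, vehicle 1 or vehicle 8 and with library weights. Between YC and vehicle livers the differences were -0.20 ± 0.25 for Psmb8, -0.54 ± 0.28 for Psmb9 and -0.30 ± 0.19 for Psmb10, and none passed the test (limma adjusted p = 0.532, 0.115 and 0.199; 0 of 3 at an unadjusted p under 0.05). These calls depended on the fit. Psmb9 passed without vehicle 8. Psmb9 and Psmb10 were called lower in YC livers with the scaling by median ratio, at -0.87 and -0.64 (limma adjusted p = 0.0167 and 0.0122), and with quantile normalization, at -0.82 and -0.46 (limma adjusted p = 0.0206 and 0.0319). With library weights all 3 were called lower, Psmb8 at -0.46, Psmb9 at -0.83 and Psmb10 at -0.49 (limma adjusted p = 0.0474, 0.0121 and 0.0142). Between YC and D0 livers, Psmb8 differed by 0.29 ± 0.26, Psmb9 by 0.17 ± 0.29 and Psmb10 by 0.35 ± 0.20, and none passed (limma adjusted p = 0.350, 0.637 and 0.143; 0 of 3 at an unadjusted p under 0.05), although Psmb10 passed without D0 3.

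The ratio of each subunit to the one it replaces is free of library scaling and was tested over libraries with an exact two-sided permutation test, adjusted over 9 tests (3 ratios, 3 comparisons). Psmb8 stood at 9.42%, 11.6% and 14.8% of Psmb5 (lowest, median and highest ratio of RPKM) in YC livers, against 17.3%, 26.9% and 33.6% in vehicle livers and 10.7%, 14.1% and 22.4% in D0 livers. Every YC liver was below every vehicle liver, and D0 livers were below all vehicle livers except that D0 3 at 22.4% lay among them. The log2 ratio differed between YC and vehicle livers by -1.07 (exact permutation, adjusted p = 0.00280, with the raw p of 0.000311 the smallest these groups can give). As deposited, Psmb5 was called higher in YC livers and Psmb8 was not called, so this difference carries the rise of Psmb5. With the scaling by median ratio, Psmb5 differed by 0.54 and Psmb8 by -0.53 (limma adjusted p = 0.0349 and 0.0939). The part of each gene in the ratio thus depends on scaling. Between vehicle and D0 livers the log2 ratio differed by 0.83 (exact permutation, adjusted p = 0.00559) and between YC and D0 livers by -0.24 (exact permutation, adjusted p = 0.186).

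Psmb9 stood at 4.81%, 7.02% and 18.7% of Psmb6 in YC livers, against 12.1%, 19.0% and 22.2% in vehicle livers and 6.74%, 8.72% and 19.3% in D0 livers. YC 3, YC 4 and YC 5 reached into the vehicle range, and the other 4 YC livers did not. The log2 ratio was -0.96 between YC and vehicle livers (exact permutation, adjusted p = 0.0120), 0.87 between vehicle and D0 livers (exact permutation, adjusted p = 0.00559) and -0.10 between YC and D0 livers (exact permutation, adjusted p = 0.788). Psmb10 stood at 11.8%, 20.4% and 25.5% of Psmb7 in YC livers, against 17.9%, 29.2% and 38.6% in vehicle livers and 13.7%, 16.2% and 28.9% in D0 livers. Its log2 ratio differed by -0.57 between YC and vehicle livers (exact permutation, adjusted p = 0.0133), which became -0.38 without YC 6 and YC 7 (exact permutation, adjusted p = 0.0688), so that call was lost. Between vehicle and D0 livers it differed by 0.74 (exact permutation, adjusted p = 0.00559) and between YC and D0 livers by 0.17 (exact permutation, adjusted p = 0.450).

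**Figure D5:**
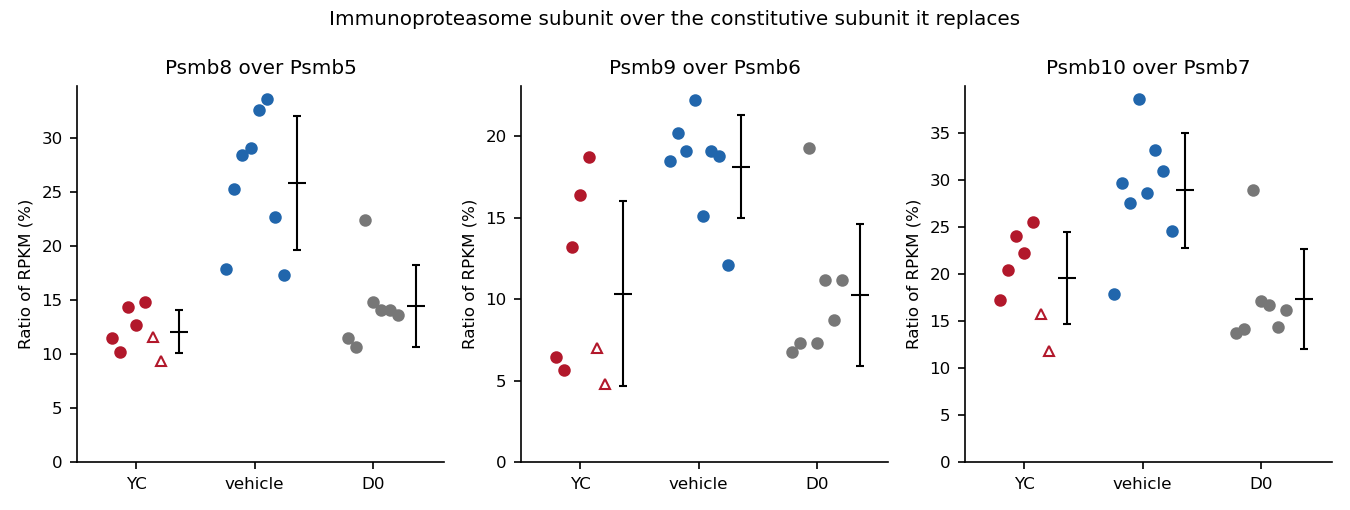
RPKM of each immunoproteasome subunit as a percent of the constitutive subunit it replaces, 1 point per library, with the group mean ± SD at the right of each group; open triangles are YC 6 and YC 7. Psmb8 over Psmb5 separates YC from vehicle livers without overlap, and D0 3 is the highest D0 liver in each panel.

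Markers of immune cells also differed between the groups. The 14 summed markers of T, B and natural killer cells, which use the immunoproteasome without induction, came to 5.02 to 11.5 RPKM in YC livers, 7.82 to 39.8 RPKM in vehicle livers and 6.05 to 13.6 RPKM in D0 livers, and every marker reached 0.1 RPKM in at least 1 library of each group. Of the 10 tested, 7 were lower in YC livers than in vehicle livers, against 6.14% of all genes (limma). In vehicle against D0 livers, 5 were higher, against 28.2% of all genes. For 13 macrophage and Kupffer cell markers the sums were 444 to 1089 RPKM in YC livers, 620 to 2110 RPKM in vehicle livers and 177 to 358 RPKM in D0 livers. Of these, 12 of 13 were higher in vehicle than in D0 livers, against 28.2% of all genes. In YC against vehicle livers, 2 were higher (Cx3cr1 and Itgam) and 3 lower (C1qa, C1qb and C1qc), against 44.6% and 6.14% of all genes. The part of these cells in the immunoproteasome levels was not tested. The exons of Psmb9 and Psmb8 overlap those of Tap1 and Gm20496 on the other strand, and no source used here states whether strand was used in counting.

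Genes known to be induced with the immunoproteasome were set beside it. Of 21 tested interferon response genes, 1 was higher and 9 were lower in YC livers than in vehicle livers (limma). The median log2 difference was -0.29, and the shares over all genes were 44.6% higher and 6.14% lower. In vehicle against D0 livers, 10 were higher and 1 lower, with a median of 0.49, against 28.2% and 29.9% of all genes. With the scaling by median ratio, 0 were higher and 14 lower in YC than in vehicle livers, against 18.6% and 16.6% of all genes. Cxcl9, a chemokine induced by interferon gamma, differed by -1.89 ± 0.32 between YC and vehicle livers (limma adjusted p = 5.35e-05) with every YC liver below every vehicle liver. Irf7, a master factor of the type I response, differed by -1.28 ± 0.28 (limma adjusted p = 0.000623) and Oas1a, an antiviral enzyme, by -0.80 ± 0.21 (limma adjusted p = 0.00342). Irf1, which activates Psmb9 and Tap1, was the gene called higher, at 0.60 ± 0.18 (limma adjusted p = 0.00939), a call lost with the scaling by median ratio and with quantile normalization. Between vehicle and D0 livers, Irf7 was higher by 2.46 ± 0.28 (limma adjusted p = 1.78e-07) and Oas1a by 1.75 ± 0.21 (limma adjusted p = 4.41e-07). Irf1 differed by -0.45 ± 0.18 (limma adjusted p = 0.0383) and was called lower. In the 10 genes of antigen processing, 1 was higher and 3 lower in YC than in vehicle livers (limma), against 44.6% and 6.14% of all genes. B2m, the light chain of class I molecules, differed by -1.50 ± 0.19 (limma adjusted p = 2.71e-06), and the class I heavy chains H2-K1 and H2-D1 by -1.16 ± 0.26 and -0.62 ± 0.19 (limma adjusted p = 0.000747 and 0.00796). The gene called higher, Tap2, encodes the partner of Tap1 in the peptide transporter and was named after its value was seen. Between vehicle and D0 livers B2m differed by 0.47 ± 0.19 (limma adjusted p = 0.0390), a call lost with the scaling by median ratio and with quantile normalization. The transporter gene Tap1, which shares its promoter region with Psmb9, differed by 0.35 ± 0.23 between YC and vehicle livers (limma adjusted p = 0.198) and was called higher without YC 6 and YC 7 and with library weights.

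Of 10 regulators of proteasome genes, 8 were higher and 0 lower in YC livers than in vehicle livers (limma), against 44.6% and 6.14% of all genes. The median log2 difference was 0.64, against 0.31 over all genes. In vehicle against D0 livers, 8 were lower and 0 higher, with a median of -0.56, against 29.9% and 28.2% of all genes. Between YC and D0 livers, 2 were higher, Vcp and Nfya, and 0 lower, against 41.2% and 12.3% of all genes. With the scaling by median ratio, 5 were called higher in the YC to vehicle comparison, against 18.6% of all genes. Nfe2l1 had 34.8, 48.3 and 57.5 RPKM (lowest, median and highest) in YC livers, against 21.7, 25.6 and 34.4 RPKM in vehicle livers and 39.6, 44.8 and 49.4 RPKM in D0 livers. Every YC liver was above every vehicle liver, and YC and D0 livers overlapped. The differences were 0.84 ± 0.12 between YC and vehicle livers (limma adjusted p = 1.42e-05) and -0.75 ± 0.12 between vehicle and D0 livers (limma adjusted p = 2.34e-05). Ddi2, the protease that cuts Nfe2l1 into its active form, was higher in YC livers by 1.07 ± 0.25 (limma adjusted p = 0.00123) and differed by -1.43 ± 0.25 between vehicle and D0 livers (limma adjusted p = 4.09e-05); it was named after its values were seen. Vcp, the ATPase that draws Nfe2l1 out of the endoplasmic reticulum, was higher in YC livers by 0.78 ± 0.12 (limma adjusted p = 2.19e-05), and Nfe2l2, the stress factor that can also raise proteasome genes, by 0.87 ± 0.14 (limma adjusted p = 4.5e-05). Between vehicle and D0 livers, Vcp differed by -0.48 ± 0.12 (limma adjusted p = 0.00165) and Nfe2l2 by -0.68 ± 0.14 (limma adjusted p = 0.000309). Of the 4 genes printed above with TGACNNNGC letters within 50 bases of the start, Psmb5, Psmd9 and Psme4 were called higher in the YC to vehicle comparison and Psmb6 was not. In that comparison 25 of the 49 tested members and 44.6% of all genes were called higher. With the scaling by median ratio, Psmb5 alone of the 4 was called, while Psmd9 at 0.21 and Psme4 at 0.23 were not (limma adjusted p = 0.266 and 0.195). A link of the letters to the levels was not tested. Psmd11, Psmd2 and Psmd14 were called higher with no such letters in their windows.

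Of 16 partners of the proteasome, 10 were higher (62.5%) and 0 lower in YC livers than in vehicle livers (limma), with a median log2 difference of 0.48, against 44.6% higher and a median of 0.31 over all genes. With the scaling by median ratio 7 were higher (43.8%) and 1 lower, against 18.6% and 16.6% of all genes. Zfand2a, a stress-induced cap binder, was higher by 1.37 ± 0.17 (limma adjusted p = 1.6e-06), and the shuttle receptors Ubqln2 and Ubqln1, which carry ubiquitinated proteins to the cap, by 1.35 ± 0.19 and 0.72 ± 0.11 (limma adjusted p = 9.6e-06 and 1.63e-05). All 3 had every YC liver above every vehicle liver. Pomp, the chaperone that matures the core, did not pass at -0.10 ± 0.21 (limma adjusted p = 0.696), nor did the cap subunits with other symbols, Adrm1 at 0.34 ± 0.18 (limma adjusted p = 0.121) and Shfm1 at -0.22 ± 0.20 (limma adjusted p = 0.365). Pomp and Shfm1 were called lower without YC 6 and YC 7 and with library weights, and Shfm1 also with the scaling by median ratio. In vehicle against D0 livers, 1 partner was higher and 10 were lower, with a median of -0.59, against 28.2% and 29.9% of all genes. The higher one was Shfm1 at 0.71 ± 0.20 (limma adjusted p = 0.00448), while Adrm1 differed by -0.54 ± 0.18 (limma adjusted p = 0.0143). AI314180, the mouse gene of the proteasome adaptor ECPAS, differed by -1.58 ± 0.11 (limma adjusted p = 2.14e-10) and Usp14, the deubiquitinase that sits on the cap, by -1.07 ± 0.14 (limma adjusted p = 7.91e-07), and in both every vehicle liver was below every D0 liver. Adrm1, Shfm1, AI314180 and Usp14 were named after their values were seen. Of 6 genes of ubiquitin and its activation, 2 were higher and 0 lower in YC livers than in vehicle livers, against 44.6% and 6.14% of all genes. They were the activating enzymes Uba6 at 0.79 ± 0.18 (limma adjusted p = 0.00121) and Uba1 at 0.44 ± 0.13 (limma adjusted p = 0.00856). At an unadjusted p under 0.05, 3 were higher and 0 lower. The call of Uba1 was lost with the scaling by median ratio and with quantile normalization.

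The remaining 4 genes lie outside these roles. Psma8 was read at 0.586, 1.05 and 1.92 RPKM in YC livers, against 0.528, 0.829 and 1.24 RPKM in vehicle livers and 0.340, 0.944 and 1.58 RPKM in D0 livers. Of 5 germ cell markers, Dazl, Sycp1 and Tex11 stayed under 0.1 RPKM in all 3 groups, while Ddx4 and Sycp3 did not. The 5 summed to 0.497 to 0.998 RPKM in YC livers, 0.375 to 0.934 RPKM in vehicle livers and 0.472 to 0.985 RPKM in D0 livers. Psma8 was not called in any comparison. Psmb11 stayed at or below 0.0533 RPKM in every library and failed the filter on low values. Psme2b had 29.9 ± 12 RPKM in YC livers, 28.8 ± 7.28 in vehicle livers and 28.7 ± 5.44 in D0 livers (mean ± SD, n = 7, 8 and 7), and was not called in any comparison; its sequence is so close to Psme2 that the division of reads between them is uncertain. Psmc3ip, whose call was lost without D0 1, 3 or 7, without YC 5 or 6, and without YC 6 and YC 7 together, was higher in YC than in D0 livers by 0.48 ± 0.18 (limma adjusted p = 0.0319), at a mean of 1.27 ± 0.570 RPKM in YC livers (SD, n = 7) and 0.760 ± 0.326 RPKM in D0 livers (SD, n = 7), and its exons overlap Mlx on the other strand. Among members named with values, exons of Psma5, Psmb7, Psmc3 and Psme1 also overlap another gene on the other strand. Those of Psmb5, Psmd1 and Psme2b overlap one on the same strand, so reads may have been shared.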

How the data were processed

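Whole livers of mice labelled Fah-/- were measured by sequencing of polyadenylated RNA in 22 libraries, and groups were taken from the labels (7 YC, 8 vehicle, 7 D0). As deposited by the authors, the values are RPKM, which scale reads to gene length and to the mapped total of a library, in 1 table with a column per library. Per the submitters' processing notes, TopHat 1.4.1, Cufflinks 1.3.0 and mm10 were used. Which tool made the values, the annotation and strand use are each not given in the sources used. Dividing by the mapped total makes values relative, so a change in a few abundant liver transcripts shifts all others. Steps in the low values gave a depth of 50500000 to 82600000 per library, but 29.6% to 35.7% of values came out as whole reads (tolerance 0.03 reads), so no count test was run. The highest Spearman correlation between libraries was 0.9917, and no library was counted as a repeat.

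Rows that reached 0.5 RPKM in 7 or more libraries were fitted as log2(RPKM + 0.5) in limma 3.58.1 (R 4.3.3, statmod 1.5.0) with 1 model of 3 groups and a robust, trended spread. Two-sided p-values were adjusted by Benjamini-Hochberg over all 12537 rows tested and called under 0.05. The ratios of immunoproteasome to constitutive subunits were compared by exact two-sided permutation tests (scipy 1.17.1), adjusted over 9 tests. Python 3.11.15, numpy 2.4.6, pandas 2.3.3 and matplotlib 3.10.9 were used. The fit was tested on simulated data.

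The members, gene lists and alternatives were chosen with earlier results of these data known. Values in each group are printed for the immunoproteasome genes and those they replace, for the called member that changed most in each class and comparison, and for members that moved against their class. From each other list, up to 3 genes of smallest adjusted p between YC and vehicle livers are named, with Nfe2l1, Nfe2l2, Pomp and Irf1. Another gene chosen for naming is not reported here. Alternatives were other pseudocounts, no filter, other scalings, library weights, a replicate block and leaving libraries out. Gene coordinates and promoter sequences come from the annotation and RefSeq tables of GRCm38, the same build as mm10.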

Additional observations from a re-analysis of the deposited data

Results flagged for a closer look

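In 6 of 156 groups of values examined, 1 library lay far from the rest by Dixon's criterion, which chance alone meets in about 1 of 20 groups. In 5 of them the library was D0 3. Psmb8 stood at 60.2 RPKM and Psmb10 at 55.6 RPKM in D0 3, and the ratios in that liver were 22.4% for Psmb8 over Psmb5, 19.3% for Psmb9 over Psmb6 and 28.9% for Psmb10 over Psmb7. The other D0 livers did not exceed 36.9 RPKM for Psmb8, 36.2 RPKM for Psmb10, and 14.8%, 11.2% and 17.1% for the 3 ratios. D0 3 also had the highest sums of D0 livers for interferon response genes, at 388 RPKM, and for macrophage and Kupffer cell markers, at 358 RPKM, and the part of these in its values was not tested. Without D0 3, Psmb8 was called higher in vehicle than in D0 livers at 0.64 on the log2 scale (limma adjusted p = 0.0268), and Psmb10 was called higher in YC than in D0 livers at 0.48 (limma adjusted p = 0.0375). The sixth was the core assembly chaperone Psmg2 in YC 5 at 21.8 RPKM, against 16.0 to 18.2 RPKM in the other YC livers.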

How the results depend on the processing

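Other pseudocounts (0.1 and 1 RPKM), no filter on low values and a fit of only the groups compared changed no direction among the 84 named values and ended at most 3 calls. Between YC and vehicle livers, 25 members were called higher and 0 lower as deposited. With scaling by median ratio 8 members were called, 5 of the 25 and 3 others that were lower. With that scaling and without YC 6 and YC 7 together (both changes, chosen after seeing the data) 15 were called, 2 of the 25 and 13 others that were lower. Between YC and D0 livers, 11 members were called as deposited, 10 higher and 1 lower. With quantile normalization 17 were called, 8 higher and 9 lower (23.3% and 30.0% of all genes); with library weights 20, 12 higher and 8 lower (48.5% and 18.2%); without vehicle 1 and YC 4 17, 16 higher and 1 lower (44.2% and 12.8%); and with both changes 28, 3 higher and 25 lower (29.1% and 29.4%). The median difference of the 34 constitutive core and cap genes between YC and vehicle livers was 0.42, and became 0.08 with median-ratio scaling and -0.02 with both changes. Between YC and D0 livers it was 0.17, and became -0.14 with median-ratio scaling, -0.02 with library weights, -0.09 without YC 6 and YC 7, -0.05 with YC 1 to 3 as the only YC libraries and -0.38 with both changes. The log2 ratio of Psmb9 over Psmb6 between YC and D0 livers became 0.16 without YC 6 and YC 7, and that of Psmb10 over Psmb7 between YC and vehicle livers became -0.38. Of all 49 tested members, 16 turned direction between YC and vehicle livers with median-ratio scaling, 11 without YC 6 and YC 7 and 28 with both changes, and 22, 13 and 27 did so between YC and D0 livers. The differences named singly that turned follow. Between YC and vehicle livers they were, with median-ratio scaling, Psmb7 -0.07, Psmc3 -0.02, Psmd13 -0.10, Psme1 -0.29 and Psme2 -0.19; with library weights, Psme1 -0.06 and Psme2 -0.10; without YC 6 and YC 7, Psmb7 -0.02, Psme1 -0.11 and Psme2 -0.12; with YC 1 to 3 alone, Psme2 -0.15. With both changes they were Psmb6 -0.19, Psmb7 -0.34, Psmc3 -0.12, Psmc6 -0.01, Psmd8 -0.04, Psmd13 -0.18, Psme1 -0.43, Psme2 -0.44 and Adrm1 -0.05. Between YC and D0 livers they were, with median-ratio scaling, Psmb8 -0.02 and Psmb9 -0.13; with quantile normalization, Psmb9 -0.09 and Psmc3ip -0.07; with library weights, Psmb9 -0.11; with YC 1 to 3 alone, Psmb9 -0.15. With both changes they were Psmb4 -0.04, Psmb5 -0.04, Psmb8 -0.20, Psmb9 -0.15 and Psmb10 -0.03. The cause of these changes was not tested. Same-numbered libraries of YC and vehicle livers correlated between -0.39 and 0.21, with 2 of 7 pairs over 0.1. A pairing by replicate number was thus not seen, though such correlations cannot exclude one. With the numbers as a replicate block, 24 members were called between YC and vehicle livers, 17 between vehicle and D0 livers and 10 between YC and D0 livers, the YC minus vehicle value of Psme1 was -0.03, and the 6 ratio calls held (exact sign-flip test, adjusted p = 0.0469 each). Leaving out 1 library at a time gave 21 to 28 members called between YC and vehicle livers, 16 to 20 between vehicle and D0 livers and 7 to 16 between YC and D0 livers. The constitutive median then ranged over 0.37 to 0.51, -0.33 to -0.24 and 0.06 to 0.25 in the same order of comparisons. Psmb8 over Psmb5 ranged over -1.15 to -1.01, 0.76 to 0.94 and -0.31 to -0.13, Psmb9 over Psmb6 over -1.13 to -0.81, 0.79 to 1.03 and -0.27 to 0.07, and Psmb10 over Psmb7 over -0.66 to -0.45, 0.68 to 0.87 and 0.10 to 0.30. Psme1 between YC and vehicle livers ranged over -0.05 to 0.16. Without read counts, the counting error of a single RPKM value could not be given.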
